A study of Mus musculus with 4 samples.

Results

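The genes described here are 35 genes of sterol and fatty acid synthesis, with the factors that control them and the transporters that export sterol. They were chosen by symbol, with earlier results of these data known, so shares over all genes beside their counts are descriptions only. All 35 were found in both deposited tables of the series, out of 23259 gene symbols listed in either table. They fall into the mevalonate arm (7 genes), the sterol arm (11 genes), the SREBP control genes (5 genes), sterol and lipid handling (4 genes) and fatty acid synthesis and desaturation (8 genes). The series holds RNA sequencing of mouse T cells in 2 separate experiments with 1 library per group, 4 libraries in all.

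In the first experiment regulatory T cells (Treg) were sorted by human CD2 from the spleen of Balb/c Foxp3-hCD2 reporter mice, in which that surface protein marks cells that express Foxp3. The groups were untreated mice and mice given dextran sulfate sodium (DSS, a polymer that injures the colon epithelium) at 3% in the water over 7 days. The second experiment used naive CD4 T cells from C57BL6 mice of wild-type genotype, transduced either with a mock vector or with one that carries Sox12, a transcription factor. The series title speaks of Treg induced by Sox12. The sources used here do not give the age or number of the mice, the culture of the transduced cells or the time from transduction to harvest. Levels are in FPKM, the fragments of a gene scaled by the length of its transcript and the depth of the library. Foxp3, the factor that defines Treg, was at 88.2 FPKM without DSS and 84.9 FPKM after DSS. Sox12 was at 1.56 FPKM in the mock and 829 FPKM in the Sox12 library, as labelled, although transcripts of the vector and of the endogenous gene are not separated. With 1 library per group no test could be run, no difference below has a replicate check, and "higher" and "lower" compare single libraries.

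Cells build cholesterol from acetyl-CoA. The mevalonate arm joins acetyl units into mevalonate and then into farnesyl diphosphate, and the sterol arm turns that into squalene, lanosterol and cholesterol. The genes of both arms are targets of the SREBP transcription factors, which SCAP carries out of the endoplasmic reticulum when sterol is low and which INSIG proteins hold back when sterol is high. Excess sterol, in oxidised form, activates the nuclear receptor LXR, whose targets Abca1 and Abcg1 export cholesterol from the cell. In T cells, activation and proliferation are known to switch on the SREBP programme and to shut down sterol export.

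Promoters of 6 members are shown because these genes carry the pattern described below. Hmgcs1 holds the sterol regulatory element searched, Idi1, Cyp51, Sc4mol and Insig1 were lower in the treated library of both experiments by at least 0.25 on the log2(FPKM + 1) scale, and Abca1 was higher in both by that margin. All but Hmgcs1 were chosen after their values were seen. Each sequence is the 300 bases from 250 before to 50 after a RefSeq start in build GRCm38.p6, 5′ to 3′ on the strand of the gene. Capitals mark TCACNCCAC (a sterol regulatory element, bound by SREBP), CCAAT (bound by NF-Y, read as ATTGG where it lies on the other strand) and CACGTG (an E-box). They lie at chr13:119690101-119690400 (plus strand, Hmgcs1), chr13:8885356-8885655 (plus, Idi1), chr5:4104648-4104947 (minus, Cyp51), chr8:64733529-64733828 (minus, Sc4mol), chr5:28071162-28071461 (plus, Insig1) and chr4:53159846-53160145 (minus, Abca1).
Hmgcs1: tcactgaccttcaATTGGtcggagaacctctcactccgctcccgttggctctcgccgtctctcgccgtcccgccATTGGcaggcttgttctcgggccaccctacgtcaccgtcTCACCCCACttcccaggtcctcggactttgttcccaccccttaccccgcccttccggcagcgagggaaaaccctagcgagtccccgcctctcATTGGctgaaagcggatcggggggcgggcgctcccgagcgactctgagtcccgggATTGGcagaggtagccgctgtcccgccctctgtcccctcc
Idi1: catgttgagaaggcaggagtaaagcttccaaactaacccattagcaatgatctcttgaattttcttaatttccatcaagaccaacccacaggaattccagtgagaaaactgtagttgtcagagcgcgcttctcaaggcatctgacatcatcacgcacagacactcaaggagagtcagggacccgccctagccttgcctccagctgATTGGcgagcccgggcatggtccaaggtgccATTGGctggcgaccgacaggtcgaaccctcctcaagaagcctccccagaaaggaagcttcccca
Cyp51: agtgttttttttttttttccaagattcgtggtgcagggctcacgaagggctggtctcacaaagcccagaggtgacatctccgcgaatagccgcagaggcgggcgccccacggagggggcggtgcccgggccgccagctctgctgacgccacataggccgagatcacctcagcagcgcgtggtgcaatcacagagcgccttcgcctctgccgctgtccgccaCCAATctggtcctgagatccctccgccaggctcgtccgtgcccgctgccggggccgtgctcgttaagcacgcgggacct
Sc4mol: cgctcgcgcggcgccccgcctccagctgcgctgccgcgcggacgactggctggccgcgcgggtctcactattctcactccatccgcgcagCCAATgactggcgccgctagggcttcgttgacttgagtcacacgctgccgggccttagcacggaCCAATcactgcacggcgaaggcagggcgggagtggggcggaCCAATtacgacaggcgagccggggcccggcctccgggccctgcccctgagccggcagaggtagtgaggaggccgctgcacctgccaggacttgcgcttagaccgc
Insig1: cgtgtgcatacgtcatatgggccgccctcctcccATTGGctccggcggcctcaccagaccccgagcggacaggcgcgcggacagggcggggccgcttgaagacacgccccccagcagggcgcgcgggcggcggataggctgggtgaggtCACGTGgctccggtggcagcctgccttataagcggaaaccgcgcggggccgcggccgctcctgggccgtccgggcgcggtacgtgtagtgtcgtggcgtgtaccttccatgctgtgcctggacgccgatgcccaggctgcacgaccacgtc
Abca1: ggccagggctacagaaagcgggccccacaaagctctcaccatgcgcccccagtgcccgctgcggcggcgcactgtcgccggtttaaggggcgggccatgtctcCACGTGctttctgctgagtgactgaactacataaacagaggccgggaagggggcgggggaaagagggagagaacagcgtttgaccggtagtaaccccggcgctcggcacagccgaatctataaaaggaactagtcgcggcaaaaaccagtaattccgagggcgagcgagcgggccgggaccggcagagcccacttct

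RefSeq promoters were matched for 26 of the 35 members, with 34 windows in all. Fdps, Fdft1, Sqle, Stard4, Pcyt2, Abcg1, Scd1, Scd2 and Fads1 were not matched. CCAAT, searched on both strands, was present in at least 1 window of 20 of the 26 members (76.9%), against 41.1% of all 27025 genes of the promoter table and 43.9% of the 7593 of them that passed the expression filter in Treg. Of the 15 matched enzymes of the mevalonate and sterol arms 14 held it, the exception being Acat2. The Sp1 motif GGGCGG was present in 22 of 26 members (84.6%), against 38.2% of all genes and 70.0% of those that passed in Treg. The sterol element TCACNCCAC, which is a strict form, was found in 1 member, Hmgcs1, and in 1.44% of all genes, and no match elsewhere says only that these letters are not in the window. CACGTG was present in 6 members (23.1%), Abca1 and Insig1 among them, against 8.09% of all genes and 12.5% of those that passed in Treg. None of the motifs overlapped another by its letters in the 6 promoters shown, and the shares are descriptions without a test.

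The levels of the members, which FPKM makes comparable between genes because it is per length, differed between the experiments in their order. In untreated Treg the most abundant members were Srebf2 (58.7 FPKM), Acly (54.9 FPKM) and Scap (23.96 FPKM), and the least abundant was Scd1 (1.32 FPKM). In the mock vector library they were Scd2 (351 FPKM), Hmgcs1 (148 FPKM), Fdps (130.0 FPKM) and Idi1 (118 FPKM), and the least abundant was Abca1 (0.605 FPKM). The ratio of Hmgcs1 to Abca1, an enzyme of synthesis and a pump of export, was 4.58 in untreated Treg and 1.65 in DSS Treg, and 245 with the mock vector and 43.8 with the Sox12 vector. It was thus lower in the treated library of each experiment. This ratio restates the changes of the 2 genes given below, and with the mock vector it rests on Abca1 below 1 FPKM. The tables were made separately, so levels are ranked only within a library.

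**Figure D1:**
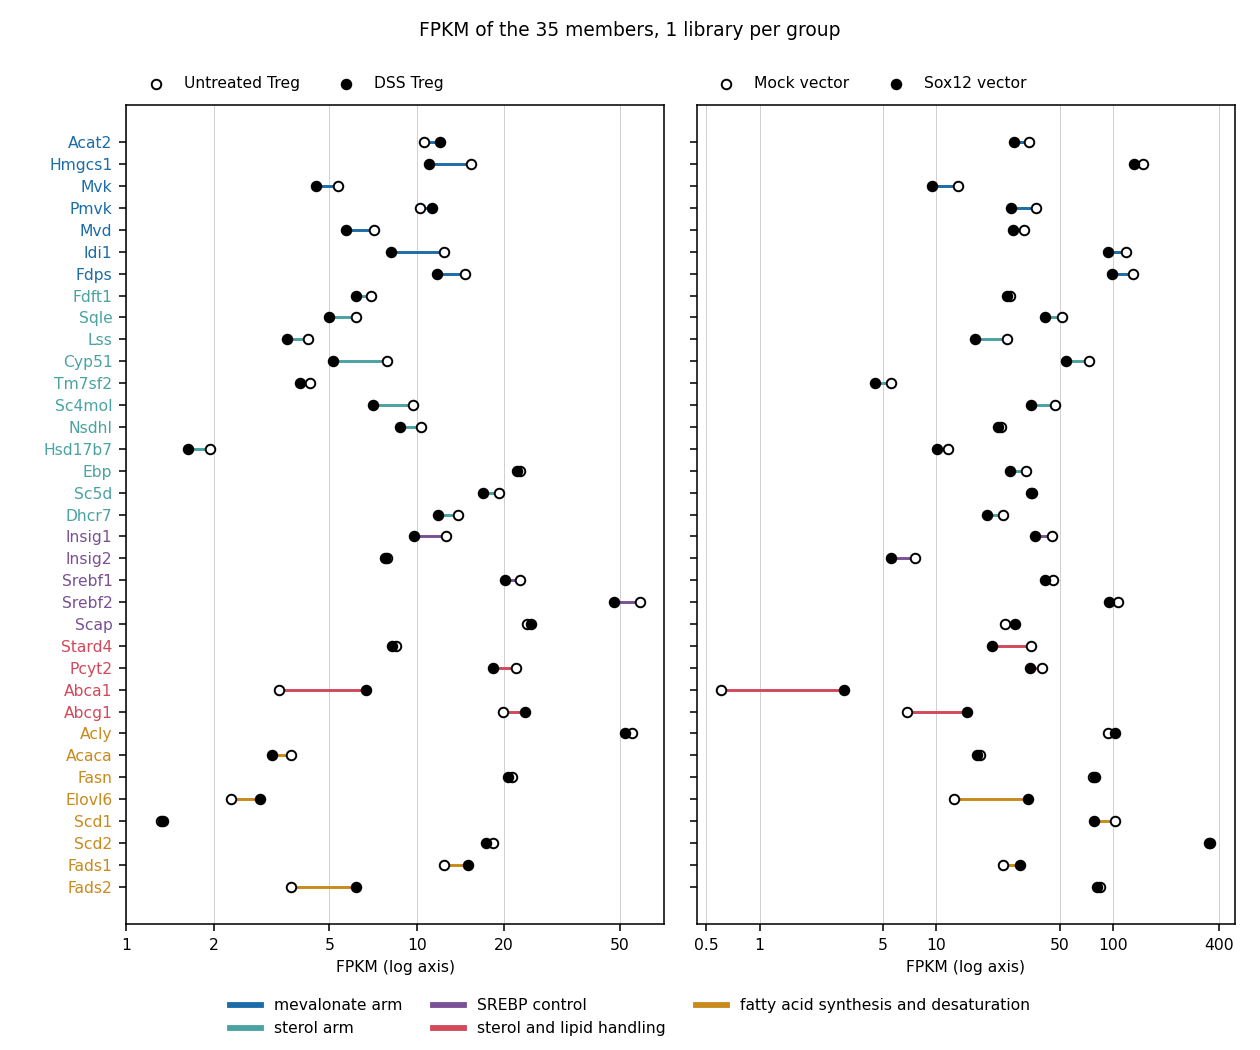
FPKM of the 35 members (log axis) in Treg (left) and transduced CD4 T cells (right), open circles for the untreated or mock vector library and filled circles for the DSS or Sox12 vector library, with 1 library per circle. Lines are coloured by role. Filled circles lie left of open ones for most enzymes of the mevalonate and sterol arms, and right of them for Abca1, Abcg1, Elovl6 and Fads1 in both panels.

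In Treg of DSS-treated mice most enzymes of cholesterol synthesis were lower than in untreated Treg, while the exporter Abca1 and the fatty acid desaturase Fads2 were higher. Of the 18 enzymes of both arms 16 were lower, with a median change of -0.21, where a change is log2(FPKM + 1) in the treated library minus that in its control. Over all 10545 genes that passed the filter (at least 1 FPKM as the mean of both libraries), 33.9% were lower and 66.1% higher, and the median change was 0.05. Over all 35 members 26 were lower and 9 higher. With the median change of all genes set to 0, 28 members were lower and 7 higher, where by construction all genes split evenly, and 16 of the 18 enzymes were lower. A change of at least 0.25 downward is a ratio of about 1.19 in abundant genes. It was reached by 7 of the 18 enzymes and 10 of all 35 members, against 3.32% of all genes. With a pseudocount of 5, which makes every change smaller, 4 enzymes and 6 members reached it. The share of all genes at that setting was not counted. All 35 members passed the filter. Their changes were small in absolute terms, since 0 members were lower and 0 higher by at least 1, which 0.0759% and 0.190% of all genes were.

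In the mevalonate arm 5 of 7 members were lower (median change -0.27). Hmgcs1, which makes HMG-CoA, was at 15.4 FPKM without DSS and 11.05 FPKM after DSS (change -0.44), and 0.891% of all genes had a lower change. Idi1, the isomerase that makes dimethylallyl diphosphate, had 12.4 and 8.13 FPKM (change -0.55), the lowest change of all 35 members. Fdps, which makes farnesyl diphosphate, had 14.7 and 11.8 FPKM (change -0.30).

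Mvd, the mevalonate diphosphate decarboxylase, had 7.14 and 5.73 FPKM (change -0.27). Mvk, mevalonate kinase, had 5.34 and 4.49 FPKM (change -0.21). The 2 members that were higher were Pmvk, the kinase of the next step, at 10.2 and 11.3 FPKM (change 0.13), and Acat2, the cytosolic thiolase that starts the pathway, at 10.6 and 11.99 FPKM (change 0.16). Acat2 has a close copy, Acat3, so the split of reads between them is uncertain. The differences within the arm thus ran from -0.55 to 0.16, and did not rise or fall steadily along the steps of the pathway.

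In the sterol arm 11 of 11 members were lower in DSS Treg (median change -0.20), from -0.54 for Cyp51 to -0.03 for Ebp. Cyp51, the lanosterol demethylase, was at 7.93 FPKM without DSS and 5.16 FPKM after DSS (ratio 0.651). Sc4mol, now named Msmo1, a sterol methyl oxidase, had 9.72 and 7.07 FPKM (change -0.41). Sqle, squalene epoxidase, had 6.19 and 4.99 FPKM (change -0.26). These 3 enzymes were the ones of the arm lower by at least 0.25.

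The next changes were those of Nsdhl, a sterol dehydrogenase, at 10.4 and 8.79 FPKM (change -0.22), Dhcr7, the reductase of a last step, at 13.9 and 11.8 FPKM (change -0.21), and Lss, which closes squalene epoxide to lanosterol, at 4.23 and 3.57 FPKM (change -0.20). Sc5d, a sterol desaturase, had 19.1 and 16.8 FPKM (change -0.17), and Hsd17b7, a sterol ketoreductase, had 1.95 and 1.63 FPKM (change -0.17). Fdft1, squalene synthase, had 6.99 and 6.203 FPKM (change -0.15). The sterol reductase Tm7sf2 (4.30 and 3.98 FPKM) and the isomerase Ebp (22.7 and 22.2 FPKM) differed least. Ebp was the most abundant enzyme of the arm in Treg and its difference was the smallest.

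Of the SREBP control genes 4 of 5 were lower in DSS Treg (median change -0.16). Insig1, which retains SCAP in the endoplasmic reticulum and is itself an SREBP target, had 12.6 and 9.75 FPKM (change -0.34). Srebf2, which encodes the SREBP that favours sterol genes, had 58.7 and 47.5 FPKM (change -0.30). Srebf1, which encodes the SREBPs that include the form favouring fatty acid genes, had 22.6 and 20.1 FPKM (change -0.16). Insig2, the paralog of Insig1, had 7.90 and 7.77 FPKM (change -0.02), so the ratio of Insig1 to Insig2 was 1.60 in untreated and 1.25 in DSS Treg. Scap had 23.96 and 24.7 FPKM (change 0.04), and this direction turned when the median change of all genes was set to 0.

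Among the genes of sterol and lipid handling, Abca1, the pump that loads cholesterol onto apolipoprotein A-I, was at 3.36 FPKM without DSS and 6.71 FPKM after DSS (ratio 2.00, change 0.82). It ranked 31 of 10545 genes counted from the highest change. Abcg1, which exports cholesterol to high-density lipoprotein, had 19.8 and 23.6 FPKM (change 0.24). Pcyt2, an enzyme of phosphatidylethanolamine synthesis, had 22.0 and 18.3 FPKM (change -0.25), and Stard4, a cytosolic sterol carrier and SREBP target, had 8.51 and 8.21 FPKM (change -0.05). The exporters and the other members of this group thus differed in opposite directions.

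Of the fatty acid genes 4 of 8 were higher and 4 lower in DSS Treg (median change -0.01). Over all genes 66.1% were higher, with a median change of 0.05. With the median change of all genes set to 0, 3 of the 8 were higher and 5 lower (median change -0.064). Fads2, the desaturase that starts the synthesis of long polyunsaturated fatty acids, had 3.69 and 6.18 FPKM (ratio 1.67, change 0.61), which ranked 85 from the highest. Fads1, the desaturase after it, had 12.5 and 14.96 FPKM (change 0.246), and the elongase Elovl6 had 2.30 and 2.89 FPKM (change 0.24). With Abca1, Fads2 made up the 2 members higher by at least 0.25, against 8.36% of all genes. With a pseudocount of 0.1 they were 5, as Abcg1, Fads1 and Elovl6 passed that margin too, against 11.9% of all genes.

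The enzymes that make and extend the acyl chain differed little. Acaca, acetyl-CoA carboxylase, had 3.69 and 3.17 FPKM (change -0.17), Acly, which supplies cytosolic acetyl-CoA, had 54.9 and 51.9 FPKM (change -0.08), and Fasn, fatty acid synthase, had 21.2 and 20.6 FPKM (change -0.04). The stearoyl-CoA desaturases Scd2 (18.2 and 17.3 FPKM) and Scd1 (1.32 and 1.34 FPKM) were close. The direction of Scd1 turned when either the median change of all genes was set to 0 or both libraries were given the same 75th percentile. Scd1 and Scd2 are similar in sequence, and reads may be shared between them.

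**Figure D2:**
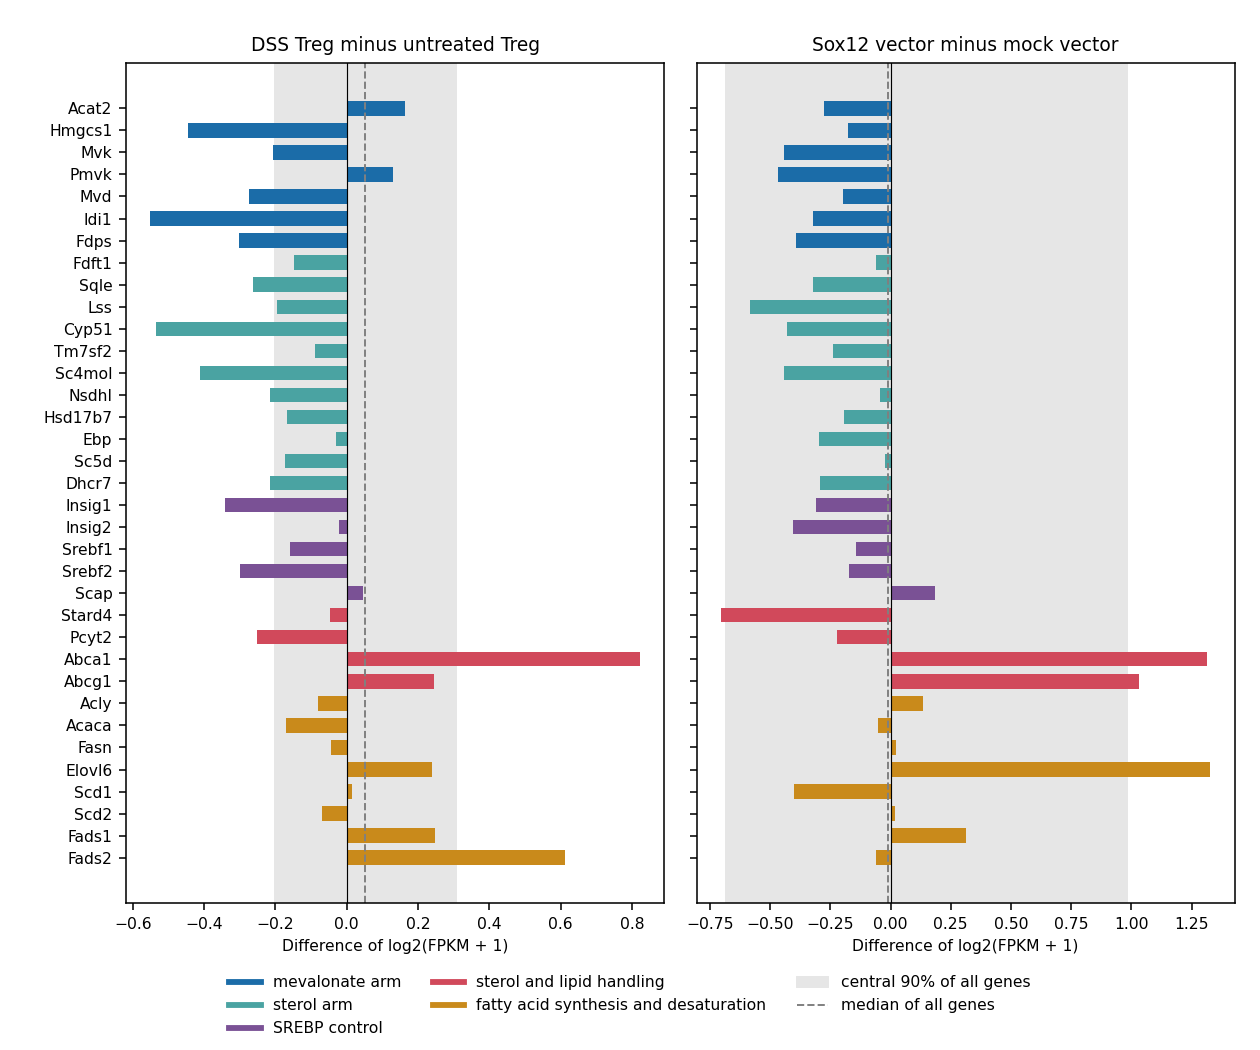
Change of each member as the difference of log2(FPKM + 1), DSS Treg minus untreated Treg (left) and Sox12 vector minus mock vector (right), as bars coloured by role. The shaded band holds the central 90% of all genes past the filter and the dashed line is their median. In Treg the lowest bars are Idi1 at -0.55 and Cyp51 at -0.54 and the highest is Abca1 at 0.82, and in transduced cells Stard4 at -0.70 is the lowest and Elovl6 at 1.33 the highest.

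In transduced CD4 T cells the 18 enzymes of cholesterol synthesis had lower FPKM as deposited with the Sox12 vector than with the mock vector, while Abca1, Abcg1 and Elovl6 were at least 2 times higher. The median change of the 18 enzymes was -0.30, against -0.01 over all 10822 genes past the filter, of which 51.1% were lower and 48.9% higher. Over all 35 members 27 were lower and 8 higher. A change of at least 0.25 downward was found in 11 of the 18 enzymes and 15 of the 35 members, against 22.1% of all genes. By at least 1, 0 members were lower, against 1.91% of all genes. The spread of all genes was wider here than in Treg, with 5% below -0.68 and 5% above 0.98, so each enzyme by itself lay inside the central 90%. With equal totals without the 20 highest genes, Nsdhl and Sc5d turned higher and 16 of the 18 enzymes were lower, against 44.0% of all genes.

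In the mevalonate arm 7 of 7 members were lower (median change -0.32), and their levels summed to 511 FPKM in the mock and 414 FPKM in the Sox12 library. Pmvk was at 36.8 FPKM in the mock and 26.3 FPKM in the Sox12 library (change -0.47), and Mvk had 13.2 and 9.44 FPKM (change -0.44). Both kinases were lower here, whereas in DSS Treg Pmvk was higher. Fdps had 130.0 and 98.8 FPKM (change -0.39), Idi1 had 118 and 94.1 FPKM (change -0.32), and Acat2 had 33.6 and 27.6 FPKM (change -0.27). Mvd (31.3 and 27.1 FPKM, change -0.20) and Hmgcs1 (148 and 131 FPKM, change -0.18) differed least, and Hmgcs1 was the most abundant enzyme of the arm in both libraries.

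In the sterol arm 11 of 11 members were lower as deposited, Nsdhl and Sc5d turning as said above (median change -0.29), and their levels summed to 354 FPKM in the mock and 288 FPKM in the Sox12 library. Lss had 25.2 and 16.5 FPKM (ratio 0.654, change -0.58), the lowest change of the 18 enzymes. Sc4mol had 47.0 and 34.3 FPKM (change -0.44), Cyp51 had 73.0 and 53.98 FPKM (change -0.43), and Sqle had 51.7 and 41.2 FPKM (change -0.32). Ebp (32.2 and 25.96 FPKM, change -0.30) and Dhcr7 (23.9 and 19.3 FPKM, change -0.29) followed. These 6 were the members of the arm lower by at least 0.25.

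Smaller differences were found for Tm7sf2 (5.52 and 4.52 FPKM, change -0.24), Hsd17b7 (11.7 and 10.1 FPKM, change -0.19) and Fdft1 (26.3 and 25.1 FPKM, change -0.06). Nsdhl had 23.1 and 22.4 FPKM (change -0.04) and Sc5d had 34.7 and 34.2 FPKM (change -0.02). Depth can be read from the vector table, where each kb of transcript gave about 42.9 fragments at 1 FPKM in the mock and 44.7 in the Sox12 library. From this, with the longest coding transcript of each gene, the counting error of a member's log2 ratio was between 0.00702 (Scd2) and 0.113 (Tm7sf2). The differences of 2 of the 35 members, Nsdhl and Sc5d, lay within its 95% interval. A shorter transcript would give a larger error. This error leaves out the choice of scaling. Fasn, Scd2 and Acaca lay outside the interval, although their directions turned under another scaling. It also leaves out how much cells and library preparations vary, and the depth of the DSS table is unknown.

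Of the SREBP control genes 4 of 5 were lower with the Sox12 vector (median change -0.17). Insig2 had 7.62 and 5.51 FPKM (change -0.41) and Insig1 had 45.2 and 36.3 FPKM (change -0.31). Srebf2 had 107 and 94.8 FPKM (change -0.17) and Srebf1 had 45.8 and 41.4 FPKM (change -0.14), so the ratio of Srebf2 to Srebf1 was 2.34 and 2.29. Scap was again higher, at 24.4 and 27.8 FPKM (change 0.18).

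The sterol exporters were low with the mock vector and higher with the Sox12 vector. Abca1 had 0.605 and 2.98 FPKM (ratio 4.93, change 1.31), and Abcg1 had 6.81 and 14.9 FPKM (ratio 2.19, change 1.03). Abca1 passed the filter through its value in the Sox12 vector library. With Elovl6 they made up the 3 members higher by at least 1, against 4.85% of all genes. That count depended on the processing. With a pseudocount of 5 Elovl6 alone was higher by at least 1, against 2.05% of all genes. With the 75th percentiles made equal they were 2, Abca1 and Elovl6, against 4.61%. With the filter at 5 FPKM they were 2, Abcg1 and Elovl6, against 3.88%. Together with Fads1, 4 members were higher by at least 0.25, against 23.1%. Stard4, the sterol carrier, had 34.4 and 20.7 FPKM (ratio 0.603, change -0.70), the lowest change of all 35 members. Pcyt2 had 39.8 and 34.0 FPKM (change -0.22).

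Fatty acid genes gave a mixed picture, with 5 of 8 higher and 3 lower (median change 0.02). Over all genes 48.9% were higher, with a median change of -0.01. Elovl6, which extends palmitate to stearate, was at 12.6 FPKM in the mock and 33.1 FPKM in the Sox12 library (ratio 2.63, change 1.33). Fads1 had 23.8 and 29.8 FPKM (change 0.31) and Acly had 93.3 and 102 FPKM (change 0.13). Scd1, which desaturates stearate, had 103 and 77.8 FPKM (change -0.40), while its abundant paralog Scd2 had 351 and 355 FPKM (change 0.02). The ratio of Scd2 to Scd1 was therefore 3.40 with the mock vector and 4.57 with the Sox12 vector.

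Fads2 had 84.6 and 81.1 FPKM (change -0.06), so it was close in the libraries in which Fads1 differed by 0.31. Fasn had 77.2 and 78.6 FPKM (change 0.02) and Acaca had 17.6 and 17.0 FPKM (change -0.05). The directions of Fasn and Scd2 turned when both libraries had the same 75th percentile, and that of Acaca with equal totals without the 20 highest genes. The summed level of the 8 fatty acid genes was 763 and 775 FPKM, whereas that of the 18 sterol enzymes was 865 and 702 FPKM.

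**Figure D3:**
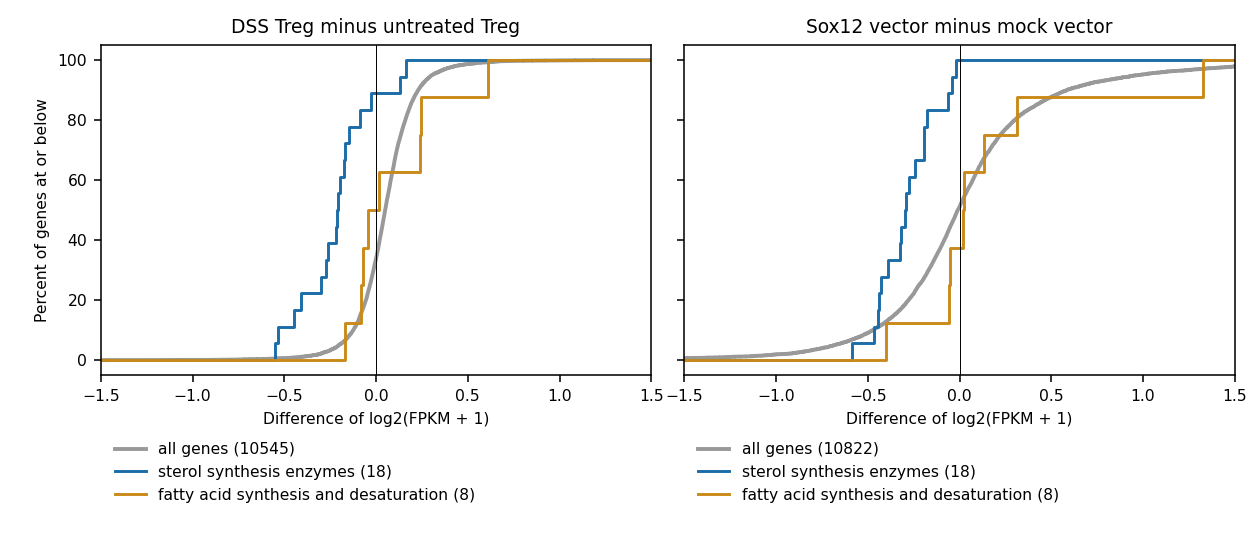
Percent of genes at or below each change in log2(FPKM + 1), for all genes past the filter (grey), the 18 sterol synthesis enzymes (blue) and the 8 fatty acid genes (ochre), in Treg (left, 10545 genes) and transduced cells (right, 10822 genes). The blue line lies left of the grey one over most of its range, with medians of -0.21 and -0.30, and the ochre line has medians of -0.01 and 0.02.

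The experiments share no library, so the changes of the members could be set side by side. Of the 35 members 28 had the same direction in both, against 50.8% of the 9958 genes past the filter in both experiments, and 23 were lower in both, against 18.0% of those genes. A change of at least 0.25 downward in both was found in 6 members, namely Idi1, Fdps, Sqle, Cyp51, Sc4mol and Insig1, against 1.18% of those genes. With a pseudocount of 5 they were 4, without Fdps and Sqle (0.582% of the genes). With equal totals without the 20 highest genes they were 5, without Insig1 (1.28%), and 20 members were lower in both (18.7%). They were 8 with the median change of all genes set to 0 (1.75%) and 7 with the 75th percentiles made equal (1.54%). The 5 members higher in both were Abca1, Abcg1, Elovl6, Fads1 and Scap, against 32.7% of the genes, with Scap turning in DSS Treg when the median change of all genes was set to 0. Abca1 was the 1 of 35 members higher by at least 0.25 in both, which is near the share of 1.92% of the genes. It passed the filter in the vector experiment through its Sox12 library value. With the filter at 5 FPKM the count was 0, against 1.16% of the genes. The changes of Fads1, Abcg1 and Elovl6 in DSS Treg were just below the margin of 0.25, at 0.246, 0.244 and 0.238. With a pseudocount of 0.1 all 3 passed it, and 4 members were higher by at least 0.25 in both, against 3.10% of the genes.

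Opposite directions were found in 7 members. Acat2 and Pmvk were higher in DSS Treg and lower with the Sox12 vector, and so were Fads2 and, except under the scalings named above, Scd1. Acly was lower in DSS Treg and higher with the Sox12 vector, as were Fasn and Scd2 except with the same 75th percentile in both vector libraries. Across the 35 members the changes in both experiments had a Pearson r of 0.63 and a Spearman rho of 0.43. Across the 9958 genes r was 0.07 and rho 0.04. Among the members Abca1 had the highest change in DSS Treg (0.82) and a high one with the Sox12 vector (1.31), and r without it was not computed. Within the 18 enzymes r was 0.07 and rho 0.13. These are descriptions across genes of the same 4 libraries, which are not independent.

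**Figure D4:**
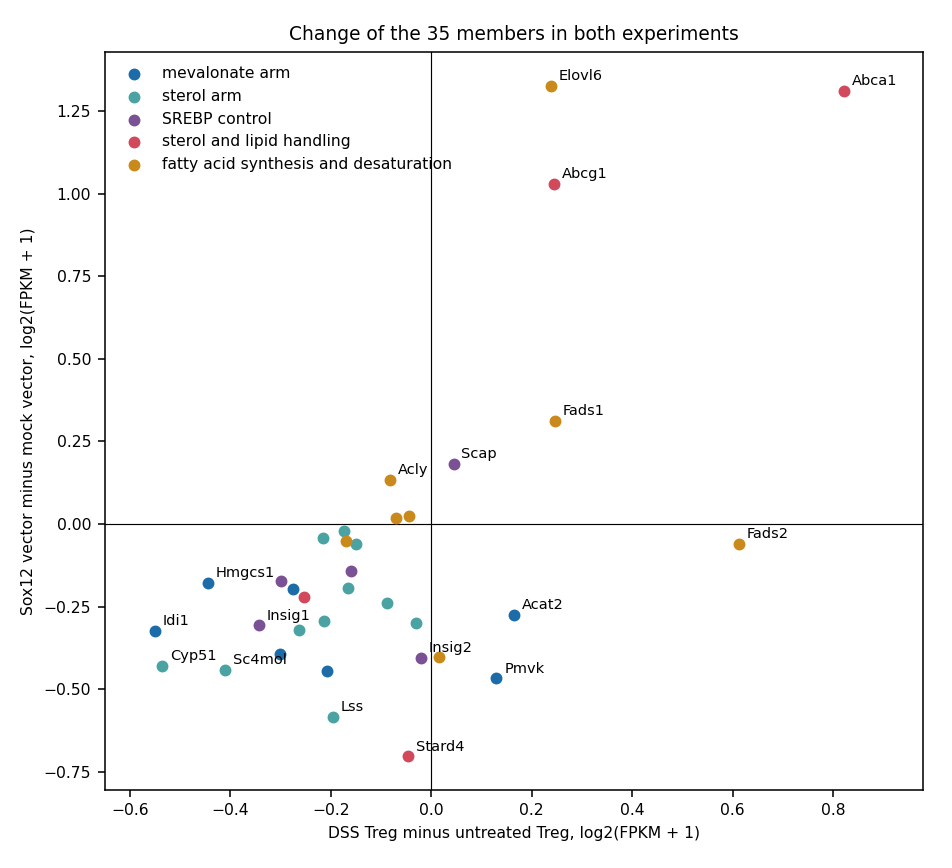
Change of each of the 35 members in DSS Treg (horizontal axis) and with the Sox12 vector (vertical axis), both as differences of log2(FPKM + 1), coloured by role. Points at the lower left are the 23 members lower in both experiments, and Abca1 at the upper right has changes of 0.82 and 1.31.

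A list of 29 other genes of sterol and lipid metabolism was measured beside the members. In DSS Treg 26 of them were listed and passed the filter, 17 were higher and 9 lower (median change 0.05), beside 66.1% higher and a median of 0.05 over all genes, so the list did not stand apart by direction. With the median change of all genes set to 0, 13 were higher and 13 lower. By at least 0.25, 0 were lower, against 3.32% of all genes, and 4 higher, against 8.36%. The highest changes were those of Mylip, a ubiquitin ligase induced by LXR, at 18.6 and 24.6 FPKM (change 0.38), Cyb5r3 (change 0.32), which passes electrons to desaturases, and the mitochondrial citrate carrier Slc25a1 (change 0.30). The lowest were those of Hsd17b12 (change -0.19), an enzyme of chain elongation, Acsl3 (change -0.17), an acyl-CoA synthetase, and Aacs (change -0.16), acetoacetyl-CoA synthetase.

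With the Sox12 vector 26 of the 29 passed the filter, 9 were higher and 17 lower (median change -0.09), beside 51.1% lower and a median of -0.01 over all genes. By at least 0.25, 9 were lower, against 22.1% of all genes, and 3 higher, against 23.1%. The lowest were Acss2, the acetyl-CoA synthetase of the cytosol and nucleus, at 4.01 and 2.06 FPKM (change -0.71), Slc25a1 at 50.3 and 31.7 FPKM (change -0.65) and Scarb1, a lipoprotein receptor, at 16.2 and 11.7 FPKM (change -0.43). The highest were Npc2, which hands cholesterol out of lysosomes, at 38.1 and 76.7 FPKM (change 0.99), Mylip at 1.33 and 3.55 FPKM (change 0.96) and Osbpl5, an oxysterol-binding protein homolog, at 2.87 and 4.87 FPKM (change 0.60). Mylip was thus among the 3 highest of this list in both experiments, while Slc25a1 was among the 3 highest in Treg and the 3 lowest in transduced cells.

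Markers of other cell types and of division differed between the libraries. In the DSS library 11 of 11 listed erythroid markers were higher (summed level 687 and 1045 FPKM), as were 15 of 15 proliferation genes (541 and 625 FPKM). Over all genes past the filter 66.1% were higher. Also higher were the 4 basophil and mast cell markers that passed the filter (summed level of all 6 listed 8.20 and 29.9 FPKM). Of these, Gata2 (0.712 and 1.34 FPKM) passed through its DSS library value. Ms4a2 (0.377 and 1.07 FPKM) and Fcer1a (0.329 and 1.36 FPKM), counted only in the sum, were listed through their DSS library values. The 4 myeloid precursor markers that passed were higher too. The myeloid precursor and neutrophil list summed to 22.0 and 34.96 FPKM over its 6 genes, of which the neutrophil genes S100a8 (1.08 and 0.678 FPKM) and S100a9 (1.19 and 0.449 FPKM) did not pass the filter and were lower. S100a8 and S100a9 were listed through their untreated library values. None of these markers was at 0. The 3 listed macrophage markers differed in direction, with Lyz2 at 8.30 and 6.36 FPKM (change -0.34), Cybb at 6.21 and 6.90 FPKM (change 0.13) and Fcer1g at 1.49 and 2.74 FPKM (change 0.59), and their sum was 16.001 and 15.99 FPKM. B and plasma cell markers (347 and 299 FPKM over 5) and NK and CD8 T cell markers (27.8 and 24.04 FPKM over 3) were lower in sum. T cell markers had a summed level of 1561 and 1576 FPKM, and Treg markers, of which 5 of 6 were lower, 880 and 829 FPKM. The part of these cells in the values of the members was not tested, and in bulk RNA fewer cells of a type and less RNA per cell cannot be told apart.

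With the Sox12 vector the NK and CD8 T cell markers were higher in 6 of 6 cases (123 and 387 FPKM). Of these, Cd8a (0.580 and 5.58 FPKM) passed the filter only through its Sox12 library value. T cell markers were lower in 5 of 5 (1553 and 1133 FPKM). Treg markers were higher in 3 of 6 (Foxp3 20.9 and 127 FPKM), and proliferation genes were lower in 10 of 15 (1782 and 1795 FPKM in sum). Over all genes past the filter 48.9% were higher and 51.1% lower. Of the macrophage list Fcer1g made up nearly all of the sum (19.1 and 67.3 FPKM), with Csf1r at 0 in both libraries. Basophil and mast cell markers summed to 0.723 and 0.612 FPKM, with Prss34 and Ms4a2 at 0, and myeloid precursor and neutrophil markers to 0.127 and 0.248 FPKM, with Elane, S100a8 and S100a9 at 0. Erythroid markers summed to 79.2 and 23.98 FPKM with Slc4a1 at 0, and B and plasma cell markers to 148 and 87.1 FPKM. Their part in the values of the members was not tested.

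The sources used here do not say whether strand was used in the quantification, so genes that overlap cannot be told apart with certainty. In GENCODE vM21, a later annotation than the authors' build, exons of 11 members overlapped those of another gene, and those of 5 overlapped a protein-coding gene. These were Cyp51 with Akap9, Fdft1 with Ctsb and Srebf1 with Rai1 on opposite strands, and Fdps with Gm43738 and Tm7sf2 with Vps51 on the same strand.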

How the data were processed

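RNA of mouse T cells was sequenced in 4 libraries, 1 per group, from total RNA purified with a PureLink kit and prepared by a strand-specific SureSelect kit (per the labels' protocols). Cufflinks and build mm9 are named in the submitters' processing notes. The sources used here do not give the aligner, annotation or versions. The deposited DSS table holds FPKM and a fold change, which is a ratio the authors computed, and lists genes above 1 FPKM in at least 1 library. In the deposited vector table the values are log2(FPKM + 1), turned back to FPKM here, beside the authors' log2 fold change. Columns were matched to libraries by name and title. Rows whose name a spreadsheet had turned into a date were left out (16 and 25).

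The change is the difference of log2(FPKM + 1), with a pseudocount of 1, over genes whose libraries average 1 FPKM or more. Changes of at least 0.25 and at least 1 were counted, with Python 3.11.15, numpy 2.4.6 and pandas 2.3.3. No test was run, since each group has 1 library. Known changes were put into the control values by the inverse of the same formula, and the change calculation returned them. That check did not cover the filter, the scalings, the depth estimate or the motif search. Depth of the vector libraries was read from genes with 1 transcript in GENCODE vM21, as the most frequent value of 1 fragment in FPKM, and rests on 13 and 18 genes. All 35 members are named, and of the other pathway genes the 3 highest and 3 lowest in each experiment. The members and lists were chosen with earlier results of these data known. Alternatives in pseudocount, filter and scaling are in the closing section.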

Additional observations from a re-analysis of the deposited data

How the results depend on the processing

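No paired analysis was possible because each group has 1 library, and for the same reason no library could be left out. The alternatives were pseudocounts of 0.1 and 5, a filter at a mean of 5 FPKM or none, and 3 scalings. The scalings left the median change of all genes within 0.1 of 0. In every alternative run the medians of the 35 members and of the 18 enzymes stayed negative in both experiments. With a pseudocount of 5 the median of the members in DSS Treg was -0.089, against 0.036 over all genes. At that setting 6 members and 4 enzymes were lower by at least 0.25, and the share of all genes was not counted. With equal totals without the 20 highest genes 2 enzymes, Nsdhl and Sc5d, were higher with the Sox12 vector, against 56.0% of all genes. With the median change of all genes set to 0 the median of the other pathway genes in DSS Treg was -0.00023. With the filter at 5 FPKM, which leaves out Abca1, the median of sterol and lipid handling with the Sox12 vector was -0.22. With the 75th percentiles made equal the median of the fatty acid genes with the Sox12 vector was -0.012. With a pseudocount of 0.1, 5 members were higher by at least 0.25 in DSS Treg (11.9% of all genes) and 4 in both experiments (3.10%). With a pseudocount of 5, 1 member was higher by at least 1 with the Sox12 vector, against 2.05% of all genes. Lower by at least 0.25 in both were then 4 members, against 0.582% of the genes. With the filter at 5 FPKM, 1 member was higher by at least 0.25 in DSS Treg, against 5.89% of all genes. At that filter 3 were higher in both, against 32.8%, and 0 by at least 0.25 in both, against 1.16%. With a pseudocount of 5 the change of Abca1 was 0.49 in DSS Treg and 0.51 with the Sox12 vector. Depth of the DSS libraries is unknown, which limits statements on its small differences.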

Other observations

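Close family copies of the members, chosen after their values were seen, were also listed. Acat1, the mitochondrial thiolase, was at 16.6 FPKM without DSS and 15.98 FPKM after DSS (change -0.05), and at 34.0 FPKM in the mock and 22.7 FPKM in the Sox12 library (change -0.56). Acat3, the near copy of Acat2, had 2.37 and 2.41 FPKM in Treg (change 0.02) and 6.34 and 5.24 FPKM in transduced cells (change -0.23). In transduced cells Scd3 had 6.70 and 6.17 FPKM (change -0.10) and Scd4 had 6.51 and 6.45 FPKM (change -0.01), both far below Scd1 and Scd2.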
